A study of Mus musculus with 12 samples.

Results

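The livers examined here are those of conditional Keap1 knockout mice (CKO) given the synthetic oleanane triterpenoid CDDO-Im or its vehicle, and the question is which effects of the drug are left when hepatocytes lack Keap1. They were chosen by their labels alone and make up 6 of the 12 samples of the series, 3 vehicle livers (replicates 3, 4 and 5) and 3 CDDO-Im livers (replicates 2, 3 and 4). CKO mice carried Albumin-Cre, which acts in hepatocytes, with 1 floxed and 1 null Keap1 allele, so their other liver cells keep 1 floxed copy. The other 6 livers, used for comparison, came from genetic controls (WT) with Albumin-Cre, 1 floxed and 1 wild-type allele, whose hepatocytes may therefore hold a single working copy. All mice were males of 9 weeks on the C57BL/6J strain, were gavaged once with vehicle (DMSO, Cremophor-EL and PBS) or with 30 umol/kg of CDDO-Im, and were killed 6 h later. Each liver's total RNA was read on 1 Affymetrix mouse array.

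Keap1 is the adaptor that hands the transcription factor Nrf2 to a ubiquitin ligase, and electrophiles such as CDDO-Im modify its cysteines so that Nrf2 escapes degradation. Nrf2 then enters the nucleus, pairs with a small Maf protein and binds antioxidant response elements near genes of quinone reduction, glutathione synthesis, thioredoxin reduction and NADPH supply. In the liver these genes prepare hepatocytes for reactive drug metabolites, and hepatocytes without Keap1 hold stabilised Nrf2 without any drug.

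Values are log2 signals, so a difference of 1 is 2-fold, and differences are given as CDDO-Im minus vehicle with limma's standard error (SE). The array medians lay between 2.32 and 2.34, near the bottom of the scale, and so do not show how alike the arrays were scaled. Upper quartiles ran from 6.46 to 6.58. The lowest correlation between replicates over the genes tested was 0.9845. Of the 12 tested macrophage and Kupffer cell markers, 0 had CKO groups that did not overlap, beside 14.6% of all genes, and their median difference was 0.03. Without CKO vehicle replicate 3, 2 of them (16.7%) had higher groups, beside 6.84% of all genes, and the median was 0.17. Their mean signal was 9.20 to 9.84 in vehicle and 9.32 to 9.73 in CDDO-Im livers. The 16 hepatocyte markers had a median difference of -0.02 (range -0.16 to 0.22) and a mean signal of 14.81 to 14.85 and of 14.81 to 14.84. Of the 8 neutrophil markers with a probe set of their own, 7, Mpo, Elane and S100a9 among them, stayed under a log2 signal of 5 on all 6 CKO arrays, as did 11 of 12 lymphocyte markers. In whole liver, fewer cells of a type and less RNA per cell cannot be told apart. In CKO livers the first of the Keap1 probe sets read 2.74 to 2.87 with vehicle and 2.90 to 3.31 with CDDO-Im, against 7.92 to 8.89 in WT livers. The second read 6.15 to 6.51 and 6.28 to 6.45 in the CKO groups. Whether either probe set lies within the deleted part is unknown here, and one that lies outside it cannot check the deletion.

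No gene passed the test for a drug difference in CKO livers. Of 8338 genes tested, 0 (0%) were called by limma at an adjusted p under 0.05, while 304 (3.65%) were called for the same drug, dose and time in WT livers. At an unadjusted p under 0.05 there were 790 genes in CKO livers (9.47%), 274 higher (3.29%) and 516 lower (6.19%) with the drug, against 1632 (19.6%) in WT livers. Differences of at least 2-fold were measured for 83 genes in CKO (0.995%) and 184 in WT livers (2.21%). The median SE of a CKO difference was 0.129, and the unadjusted 95% interval reached a median of 0.29 to each side. Changes of that order cannot be told from the spread of 3 livers a group. After adjustment over 8338 genes much larger differences went uncalled too, such as Bmp6 at 1.57 ± 0.26. The absence of calls does not show that a gene stayed the same. The lowest adjusted p was 0.225, shared by 11 genes.

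Nqo1, Srxn1, Gclc, Txnrd1, Mt1 and Mt2, which rose with CDDO-Im in WT livers, were already higher on every CKO vehicle array than on any WT vehicle array, and none passed the test for a drug difference in CKO livers. Nqo1, the quinone reductase that serves as the classic readout of Nrf2, read 11.04, 11.16 and 11.05 with vehicle and 10.78, 10.74 and 11.05 with the drug in CKO livers. In WT livers it read 5.18, 6.53 and 6.96 with vehicle and 9.86, 9.59 and 9.56 with the drug. All 6 CKO arrays lay above all WT arrays for Nqo1, and the CKO groups overlapped. The drug difference of Nqo1 was -0.23 ± 0.35 in CKO livers (unadjusted 95% interval -1.0 to 0.54) against a rise of 3.45 ± 0.35 in WT livers, or 10.9-fold. The difference between these responses, the interaction of genotype and drug, was -3.68 ± 0.49 (limma adjusted p = 0.0187).

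Gclc, the catalytic subunit of glutamate-cysteine ligase, which sets the rate of glutathione synthesis, read 13.75, 13.89 and 13.57 with vehicle and 13.72, 13.57 and 13.79 with the drug in CKO livers. Its groups overlapped almost wholly, with a difference of -0.05 ± 0.11 (interval -0.28 to 0.19), while WT livers rose by 1.50 ± 0.11 and the interaction was -1.54 ± 0.15 (adjusted p = 0.0052). Gclm, the modifier subunit of the same enzyme, read 12.71, 12.68 and 12.61 with vehicle and 13.09, 12.78 and 12.94 with the drug. All 3 Gclm values of drug-treated CKO livers lay above the vehicle values, by 0.27 ± 0.11 (interval 0.02 to 0.52, adjusted p = 0.515), which did not pass the test, and the interaction of -0.80 ± 0.16 was not called either (adjusted p = 0.0885). The transferase Gsta2 differed by 0.16 ± 0.18 in CKO livers and rose by 2.30 ± 0.18 in WT livers, with an interaction of -2.15 ± 0.26 (adjusted p = 0.0138). Of the 21 tested genes of glutathione synthesis and conjugation, 7 rose in WT livers, beside 1.88% of all genes. In CKO livers 0 were called, as of all genes, and the median differences were 0.52 in WT and -0.00 in CKO livers.

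In the thioredoxin group, Srxn1, the sulfiredoxin that repairs overoxidised peroxiredoxins, read 11.91, 11.84 and 11.68 with vehicle and 10.86, 11.32 and 11.70 with the drug in CKO livers. Srxn1 was thus lower in 2 of the 3 drug-treated livers than in any vehicle liver, with a difference of -0.52 ± 0.25 (interval -1.08 to 0.05) that was not called. In WT livers Srxn1 rose by 3.07 ± 0.25, and the interaction was -3.59 ± 0.36 (adjusted p = 0.0052). Txnrd1, the cytosolic thioredoxin reductase, differed by -0.08 ± 0.13 in CKO livers and rose by 1.40 ± 0.13 in WT livers (interaction -1.48 ± 0.18, adjusted p = 0.0138). The carbonyl reductase Cbr1 differed by -0.03 ± 0.16 against a WT rise of 1.48 ± 0.16 (interaction -1.50 ± 0.22, adjusted p = 0.0306). Its relative Cbr3 read 14.56, 14.99 and 14.08 with vehicle and 14.11, 13.99 and 14.60 with the drug in CKO livers. Cbr3 had 2 of 3 WT vehicle arrays near the bottom of the scale, at 3.14 and 3.01, and 1 at 7.16, and its interaction was not called (-6.18 ± 1.25, adjusted p = 0.0885). Hmox1, the inducible heme oxygenase, overlapped between the CKO groups at 7.91, 7.39 and 7.65 against 7.77, 6.62 and 7.60, and neither its CKO difference (-0.32 ± 0.29) nor its interaction (-1.79 ± 0.40, adjusted p = 0.136) was called.

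Metallothioneins, small proteins that bind zinc and copper, had the widest called differences between the responses of the genotypes. Mt2 read 13.62, 12.76 and 12.93 with vehicle and 13.71, 13.23 and 14.19 with the drug in CKO livers, against 7.63, 5.99 and 7.88 and then 12.73, 11.37 and 13.09 in WT livers. The CKO groups overlapped and 2 of the 3 CKO vehicle values lay between drug-treated WT values. The CKO difference of Mt2 was 0.61 ± 0.55 (interval -0.61 to 1.83) against a WT rise of 5.23 ± 0.55, with an interaction of -4.62 ± 0.78 (adjusted p = 0.0492). Mt1 differed by 0.29 ± 0.46 and had an interaction of -4.03 ± 0.65 (adjusted p = 0.0411). The zinc exporter Slc30a1 differed by -0.77 ± 0.23 with CKO groups that did not overlap and by -0.86 ± 0.23 in WT livers, and neither difference was called (adjusted p = 0.42 and 0.0659).

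**Figure D1:**
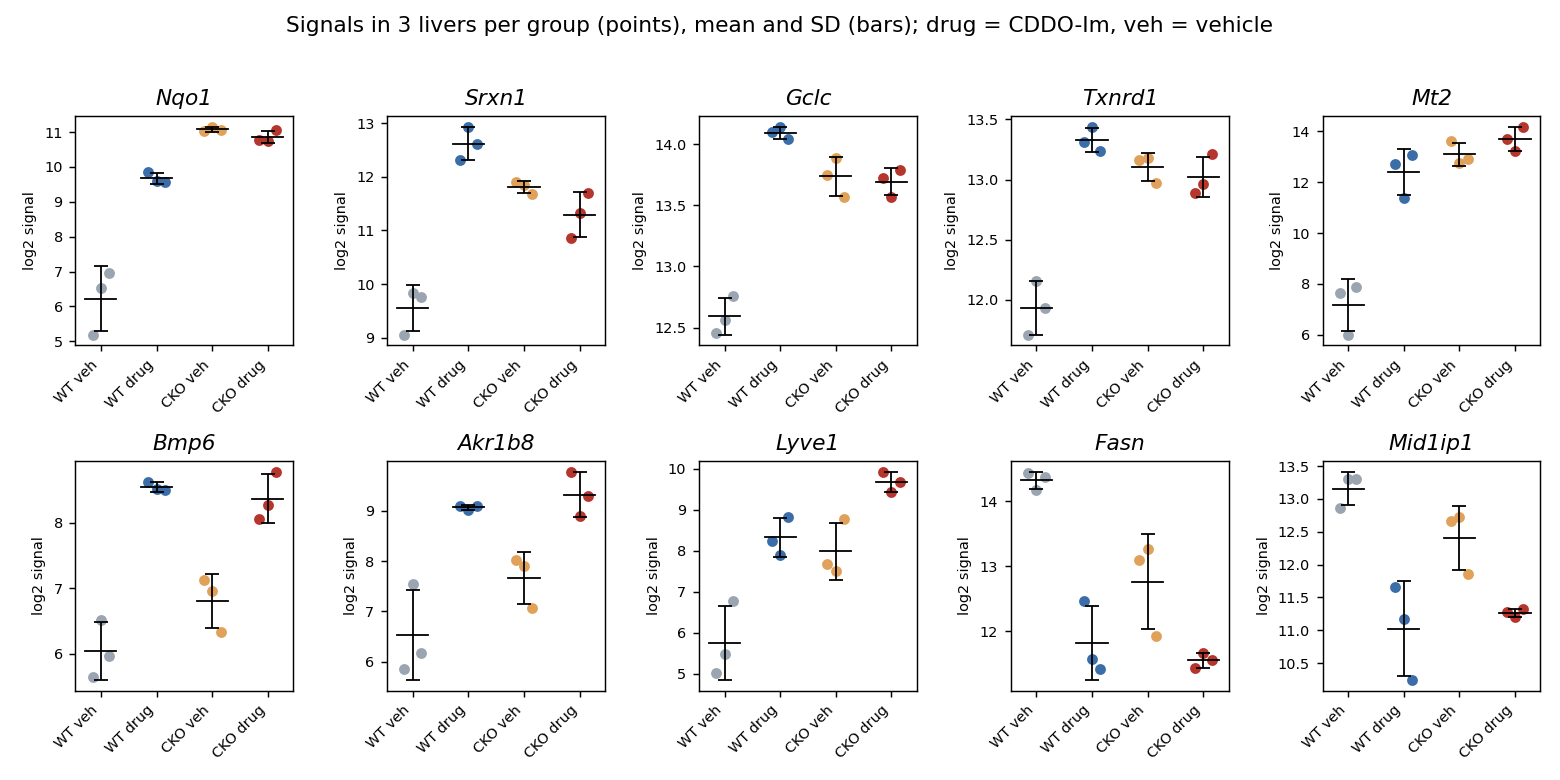
Log2 signal of 10 genes on each of the 12 arrays (points), with group means and SDs (black bars, n = 3 livers), for vehicle (veh) and CDDO-Im (drug) in WT and CKO livers. Nqo1, Srxn1, Gclc, Txnrd1 and Mt2 are high in both CKO groups, which overlap, while the 3 CKO CDDO-Im values of Bmp6, Akr1b8 and Lyve1 lie above, and those of Fasn and Mid1ip1 below, the 3 CKO vehicle values.

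The interaction was called for 23 of the 8338 genes (0.276%, with 10.3% at an unadjusted p under 0.05), and all 23 were among the genes called in WT livers. Of these, 21 (0.252%) had a lower response in CKO than in WT livers and all 21 had risen in WT livers, by a median of 1.39, against a median of -0.05 in CKO livers. Of the 21, 0 had CKO groups that did not overlap, beside 14.6% of all genes. CKO and WT values entered the choice of these genes, and nothing is read from that count or from these medians. Besides the genes above they included Ppfibp2 (interaction -2.05 ± 0.25), the aldo-keto reductase Akr1c19 (-1.66 ± 0.27) and Pir, the iron-binding protein pirin (-1.55 ± 0.23). A further 10, named here after their values were seen, were Pgd and Gsr, enzymes that make NADPH and reduce glutathione, Ugdh, which makes UDP-glucuronic acid, the glycogen branching enzyme Gbe1, the small Maf protein Mafg, Abhd4, Ubap1, Dennd4c, Ikbkg and Tent4b. The other 2 genes (0.024%) had fallen in WT livers. Pnpla3, a lipid droplet protein, read 2.55, 4.01 and 2.55 with vehicle and 2.49, 2.46 and 2.46 with the drug in CKO livers, so that 5 of 6 values lay near the bottom of the scale (interaction 3.02 ± 0.46, adjusted p = 0.0332). It passed the filter on low values, a signal of 5 on at least 3 arrays, through WT vehicle livers alone, where its lowest value was 5.74, and WT livers with the drug read 2.55, 2.26 and 2.46. With those levels at the floor, its interaction is not read as a difference in response, and the stricter filter dropped the gene. Tsc22d1, a leucine zipper transcription factor, read 11.74, 11.51 and 11.20 with vehicle and 10.73, 11.19 and 10.77 with the drug in CKO livers (difference -0.59 ± 0.20, interaction 1.70 ± 0.29, adjusted p = 0.0492). The count of 23 rested on single arrays. It was 2 without CKO CDDO-Im replicate 2, 3 without CKO CDDO-Im replicate 3 or CKO vehicle replicate 3, 8, 10 and 12 without WT CDDO-Im replicates 4, 3 and 2, 11 without CKO vehicle replicate 5, 12 without CKO vehicle replicate 4 or CKO CDDO-Im replicate 4, 14 without WT vehicle replicate 1, and 25 and 31 without WT vehicle replicates 2 and 3. Gclc and Srxn1 remained called in all 12 of these fits.

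Promoters were read for the 21 genes with a lower response in CKO livers, because they moved together in WT livers. Windows ran from 250 bases before to 50 after the start (RefSeq, GRCm38.p6), and the core antioxidant response element was searched as TGACNNNGC on both strands. It was found in 10 of the 19 genes with a window among the 21 (52.6%), in 34 of 132 genes that rose in WT livers (25.8%), in 25 of 118 that fell (21.2%), in 1193 of 6856 genes tested (17.4%) and in 4071 of 32851 windows in all (12.4%). The smaller sets lie within the larger ones, and a match is a description of letters. Gclc and Gsr were not among the windows used. Stretches of Mt2 (chr8:94172515-94172571, plus strand), Txnrd1 (chr10:82859090-82859146, plus strand) and Pir (chrX:164269193-164269249, plus strand), 3 of the 21, are set beside that of Bmp6 (chr13:38345584-38345640, plus strand), whose CKO groups did not overlap. Capitals mark the match, which reads as its reverse complement in Txnrd1 and Pir.
Mt2: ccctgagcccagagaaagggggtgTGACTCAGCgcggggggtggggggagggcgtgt
Txnrd1: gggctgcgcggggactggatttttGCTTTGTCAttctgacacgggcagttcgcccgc
Pir: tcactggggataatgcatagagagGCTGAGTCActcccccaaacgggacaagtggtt
Bmp6: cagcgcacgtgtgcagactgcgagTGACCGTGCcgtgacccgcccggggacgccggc
The match begins 79 bases before the start in Mt2, 92 in Txnrd1, 214 in Pir and 108 in Bmp6. The same search in Akr1b8, Bmp2, Lyve1, Abcc1, Ampd3, Fasn, Pnpla3 and Tsc22d1, whose CKO groups did not overlap either, gave no match. Ampd3 and Tsc22d1 had a window. Whether the others had one was not recorded, so for them the lack of a match may mean that no sequence was searched. The metal response element, searched as TGCACNC or TGCGCNC on both strands, was found in 10 of the same 19 genes (52.6%) and in 2790 of the 6856 tested (40.7%). Mt2 held 4 such matches and Mt1 held 3.

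Most genes that responded in WT livers had a difference of the same sign in CKO livers, with a smaller median. The WT and CKO differences share no arrays, but the calls in WT livers used a spread pooled over all groups. The spread within CKO groups thus entered the choice of genes. The main fit called 304 genes in WT livers, and the 6 WT arrays alone gave 85. With a single CKO array left out the count was 218 to 318. The genes were otherwise chosen by their WT values, and that choice by itself enlarges the WT medians. The smaller CKO medians are therefore not read as a weaker response. Of the 157 genes that rose in WT livers (1.88% of those tested), 98 (62.4%) were above 0 in CKO livers, beside 43.7% of all genes, with medians of 0.84 in WT and 0.07 in CKO livers. In 35 of them (22.3%) all 3 CKO CDDO-Im livers lay above all 3 vehicle livers, beside 5.18% of all genes, and in 6 they lay below. Of the 147 genes that fell in WT livers (1.76%), 122 (83.0%) were below 0 in CKO livers, beside 56.2% of all genes, with medians of -0.65 and -0.19. In 49 of these (33.3%) the CKO CDDO-Im livers all lay below, beside 9.4%, and in 2 they lay above. These shares partly follow from the filter on low values, which Abcc1 and Ampd3, among the 35, passed through CDDO-Im livers alone. Pnpla3, among the 49, passed it through WT vehicle livers alone. How many more genes did so was not counted. Genes with a small pooled spread are called more easily, and tight CKO groups overlap less. The choice of genes may therefore also raise the shares without overlap, and by how much was not tested. With arrays centred on their medians, an alternative chosen after the data were seen, the counts for the genes of the WT contrast were 43 and 43, while those over all genes turned from 432 higher and 784 lower to 807 and 601. Across the 8338 genes the CKO and WT differences had a Pearson r of 0.29, given as a description over genes that share arrays and are not independent. The WT calls also rested on single arrays, with 106 without WT CDDO-Im replicate 4, 163 without its replicate 3, 165 without WT vehicle replicate 2 and 187 without WT vehicle replicate 3.

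**Figure D2:**
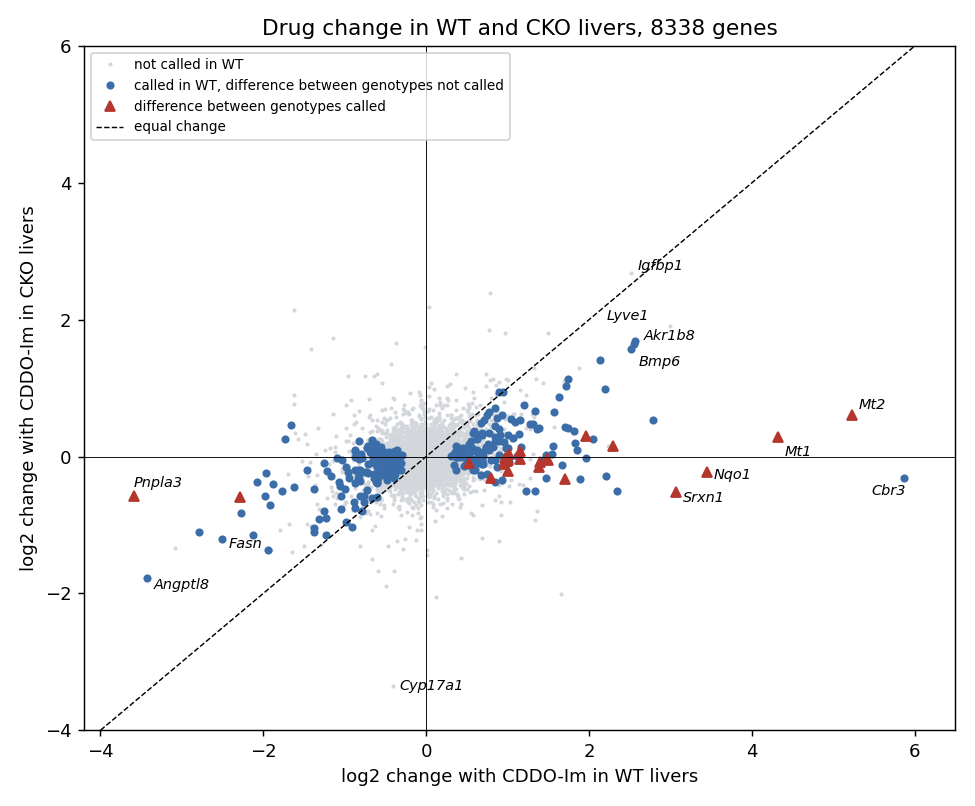
Log2 change with CDDO-Im in WT (x axis) and CKO livers (y axis) for the 8338 genes tested, with genes called in WT livers in blue, the 23 genes with a called interaction as red triangles and a dashed line at equal change. Mt2, Mt1, Nqo1 and Srxn1 lie between -0.52 and 0.61 on the y axis, and Bmp6, Akr1b8 and Lyve1 lie at 1.57 to 1.69 on it.

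Bmp6 and Bmp2 rose in WT livers and were also among the 11 genes at the lowest adjusted p in CKO livers. Bmp6 encodes the bone morphogenetic protein that liver endothelium makes in response to iron and that drives hepcidin. It read 7.12, 6.96 and 6.33 with vehicle and 8.06, 8.27 and 8.78 with the drug in CKO livers, so the groups did not overlap. The difference was 1.57 ± 0.26, or 2.97-fold (unadjusted 95% interval 0.99 to 2.15, limma adjusted p = 0.225), and was not called. In WT livers Bmp6 rose by 2.51 ± 0.26, and the interaction of -0.94 ± 0.37 did not pass the test (adjusted p = 0.433). Bmp2, a ligand of the same family with the same endothelial source, read 7.58, 7.65 and 7.44 with vehicle and 8.06, 8.09 and 8.36 with the drug in CKO livers. Its groups also stood apart, by 0.61 ± 0.10 in CKO (adjusted p = 0.225) and by a called rise of 0.75 ± 0.10 in WT livers, with an interaction of -0.14 ± 0.14 (adjusted p = 0.772).

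Further genes that rose in WT livers had CKO groups that did not overlap. Akr1b8, an aldo-keto reductase that clears reactive carbonyls, read 8.02, 7.91 and 7.07 with vehicle and 9.78, 8.89 and 9.29 with CDDO-Im in CKO livers. That is a difference of 1.65 ± 0.41 (3.15-fold, adjusted p = 0.325) beside a WT rise of 2.55 ± 0.41, and the interaction of -0.89 ± 0.58 was not called. Lyve1, the hyaluronan receptor of liver sinusoidal and lymphatic endothelium, read 7.67, 7.52 and 8.79 with vehicle and 9.93, 9.43 and 9.69 with the drug (1.69 ± 0.46, adjusted p = 0.388) beside a WT rise of 2.57 ± 0.46. Of the 15 tested endothelial markers, Lyve1 and Bmp2 were the only ones with higher CKO groups that did not overlap, Tek was lower (-0.29), the list's median was -0.02, and its mean signal was 7.97 to 8.09 with vehicle and 8.01 to 8.33 with the drug. Pecam1 and Emcn lay under a signal of 5 on all 6 CKO arrays, and the part of endothelial cell number in these values was not tested. Abcc1, an export pump for glutathione conjugates, read 4.91, 4.41 and 4.20 with vehicle and 5.55, 5.31 and 5.76 with the drug (1.03 ± 0.27, adjusted p = 0.361). All 6 vehicle values of Abcc1 lay under a signal of 5, from 3.34 to 4.91, so it passed the filter through the CDDO-Im livers alone. Ampd3, an AMP deaminase named here for its low adjusted p after the values were seen, read 3.57, 3.93 and 3.47 against 4.84, 4.71 and 5.66 (1.41 ± 0.26, adjusted p = 0.225). Its vehicle values, 2.72 to 3.93 over both genotypes, lay near the bottom of the scale and it too passed only through the CDDO-Im livers, so nothing is read from the differences of Abcc1 and Ampd3.

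Fatty acid and triglyceride synthesis had more genes that fell in WT livers than any other list used here, and several of its members lay lower with the drug in CKO livers too. Of its 29 tested genes, 12 fell in WT livers, beside 1.76% of all genes, and 0 were called in CKO livers, as of all genes. In CKO livers 7 (24.1%) had lower groups and 3 (10.3%) had higher groups that did not overlap, beside 9.4% and 5.18% of all genes. Both the 12 and the 7 include Pnpla3, which passed the filter through WT vehicle livers alone and from which nothing is read. The medians of the list were -0.56 in WT and -0.15 in CKO livers, against -0.024 for all genes in either genotype. The CKO median rested on single livers, at -0.06 without CKO vehicle replicate 4, -0.07 without CKO vehicle replicate 3 and -0.08 without CKO CDDO-Im replicate 4, and it was -0.08 with the most variable probe set and -0.07 with no filter on low values. Fasn, the fatty acid synthase, read 13.10, 13.26 and 11.92 with vehicle and 11.43, 11.66 and 11.56 with the drug in CKO livers. The drug-treated Fasn values were close together and below all vehicle values, of which replicate 5 was the lowest, and the difference was -1.21 ± 0.34 (interval -1.97 to -0.45, adjusted p = 0.392) against a WT fall of 2.51. Mid1ip1, which activates acetyl-CoA carboxylase, read 12.66, 12.72 and 11.85 against 11.28, 11.20 and 11.32 in CKO livers (-1.14 ± 0.33, adjusted p = 0.41). The liver pyruvate kinase Pklr (-0.71 ± 0.22) and the glycerol phosphate acyltransferase Gpam (-0.66 ± 0.16) also had CKO groups that did not overlap. Srebf1, the transcription factor that drives this pathway, overlapped between the CKO groups (-0.24 ± 0.40, against a WT fall of 1.97), as did the elongase Elovl6 (-0.83 ± 0.41). Above the vehicle groups stood Elovl2 and the phosphatidate phosphatases Lpin1 (1.11 ± 0.71) and Lpin2 (1.30 ± 0.48), the latter beside 1.32 ± 0.48 in WT livers. Of the 20 tested cholesterol genes, 0 had CKO groups that did not overlap, with medians of -0.11 in CKO and -0.52 in WT livers. Without CKO vehicle replicate 4, 9 of them (45%) had lower groups, beside 16.6% of all genes, and the CKO median was -0.23. It was -0.02 without CKO vehicle replicate 5 and -0.07 without CKO vehicle replicate 3.

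The secreted regulators Inhbe, Inhba and Angptl8 and the clock genes Bhlhe40 and Per2 fell in WT livers. Their CKO differences, none of them called, lay below 0. The clock list did not move as a whole. Of its 16 tested genes 2 were called lower in WT livers, beside 1.76% of all genes. In CKO livers 7 lay above and 9 below 0, beside 43.7% and 56.2% of all genes. The medians of that list were 0.16 in WT and -0.02 in CKO livers. Inhbe, a subunit of the activins, read 9.18, 8.64 and 7.72 with vehicle and 7.09, 6.72 and 7.65 with the drug in CKO livers (-1.36 ± 0.41, adjusted p = 0.42), beside a WT fall of 1.94. Its relative Inhba overlapped between the groups (-1.11 ± 0.59), as did Angptl8, an insulin-induced inhibitor of lipoprotein lipase (-1.78 ± 0.68). Bhlhe40, a repressor of the clock, read 11.61, 12.16 and 11.86 against 10.90, 10.39 and 11.19 (-1.05 ± 0.27, adjusted p = 0.359), and the clock repressor Per2 differed by -0.90 ± 0.29 with groups that did not overlap. In WT livers Inhba fell by 2.79, Angptl8 fell by 3.43, Bhlhe40 fell by 1.38 and Per2 fell by 1.23. None of the 5 interactions was called, which does not show that the responses were alike.

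**Figure D3:**
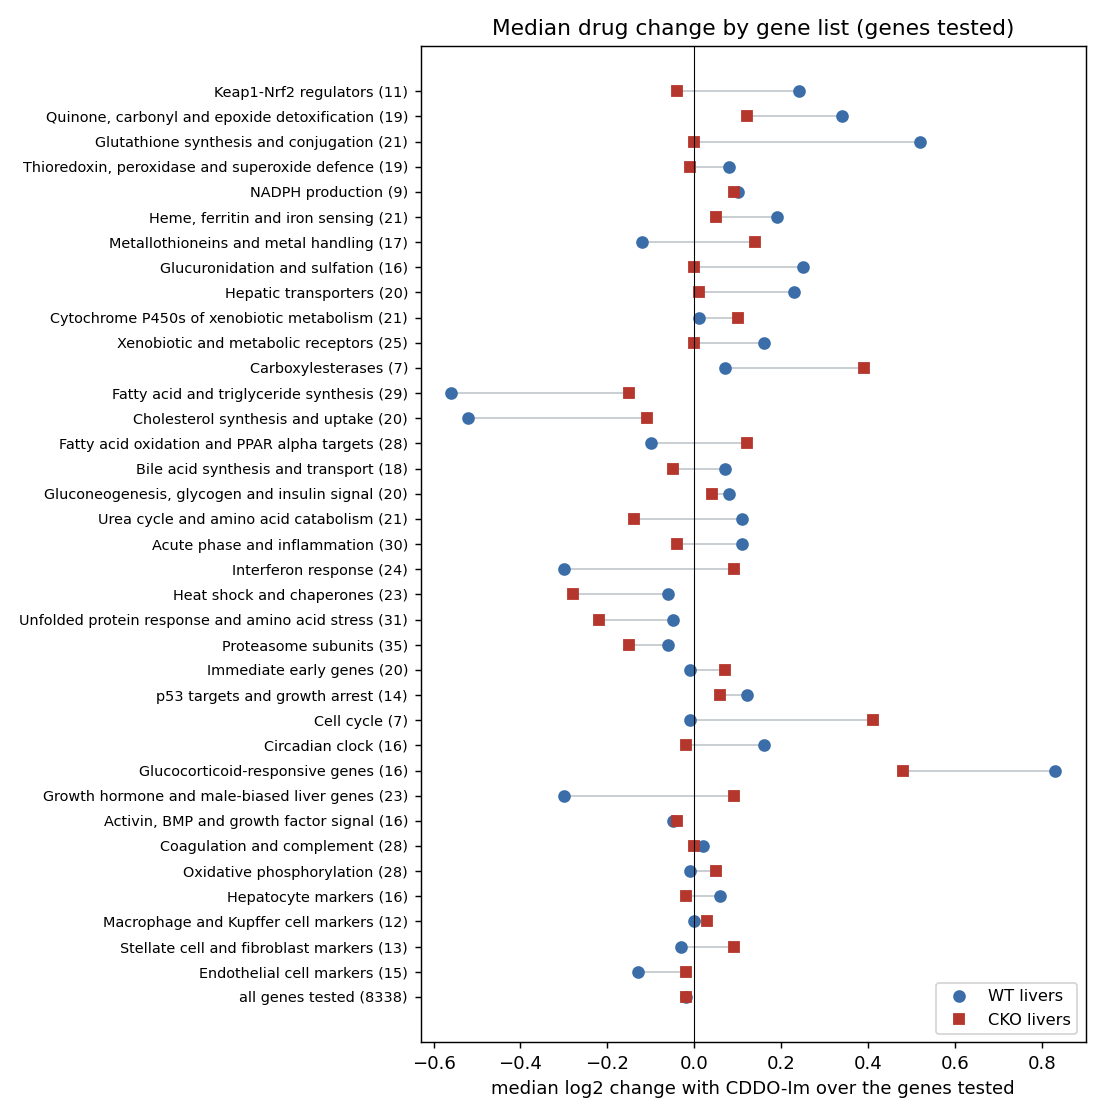
Median log2 change with CDDO-Im over the tested members of each gene list (number in parentheses) in WT (blue circles) and CKO livers (red squares), with all 8338 genes at the bottom. Glutathione genes lie at 0.52 in WT and -0.00 in CKO livers, and heat shock genes at -0.06 and -0.28.

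In the lists of chaperone, endoplasmic reticulum stress and proteasome genes, CKO values lay lower with the drug without overlap in 34.3% to 35.5% of the tested members, and none of those differences was called. Heat shock genes code for chaperones that refold damaged proteins. Of the 23 tested, 8 (34.8%) had CKO CDDO-Im groups below the vehicle groups without overlap and 0 had them above, beside 9.4% and 5.18% of all genes, and 20 lay below 0. None of the 23 was called in CKO or WT livers, beside 0% and 3.65% of all genes, and the medians were -0.28 and -0.06. Hspa1b, the inducible Hsp70, read 10.53, 10.29 and 10.17 with vehicle and 9.16, 9.15 and 8.97 with the drug in CKO livers (-1.24 ± 0.63, adjusted p = 0.572). Its 6 CKO values were tight within groups, and its WT values ran from 7.92 to 10.56, which widened the shared error. The 7 other members whose groups stood apart were Hsph1 (-0.69), Dnajb1 (-0.65), Dnaja1 (-0.58), Fkbp4 (-0.46), Hspa8 (-0.41), Bag3 (-0.39) and Hspa4 (-0.32). The mean signal over the list was 11.36 to 11.50 in CKO vehicle and 11.01 to 11.32 in CKO CDDO-Im livers, but 10.97 to 11.60 across the 6 WT livers, so the CKO gap lies inside the range seen in WT livers. CKO CDDO-Im replicate 2 was the lowest, and without it the median was -0.13.

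Of the 31 tested genes of the unfolded protein response and amino acid stress, 11 (35.5%) had lower and 1 (3.23%) had higher CKO groups without overlap. Over all genes these shares were 9.4% and 5.18%. The list's medians were -0.22 in CKO and -0.05 in WT livers. Its mean signal overlapped between the CKO groups, at 11.44, 10.98 and 11.38 with vehicle and 11.01, 11.10 and 11.13 with the drug. Vehicle replicate 4 thus lay below every drug-treated CKO liver. Chaperones and folding factors of the endoplasmic reticulum among the lower ones were Creld2 at -0.71 ± 0.27, Sdf2l1 at -0.67 ± 0.24, Hsp90b1 at -0.52 ± 0.14, Manf at -0.48 ± 0.16, Hspa5, the BiP chaperone, at -0.38 ± 0.10, Pdia3 (-0.39), Dnajb11 (-0.35), Pdia6 (-0.33) and Calr (-0.20). Hspa5 read 14.46, 14.42 and 14.61 with vehicle and 14.20, 14.08 and 14.09 with the drug. The other lower members were Ddit3, the stress transcription factor CHOP, at -0.75 ± 0.27 and the alanyl-tRNA synthetase Aars (-0.22), and Cebpb was the member that stood higher (0.55 ± 0.23), beside a called WT rise of 1.04. The largest difference in the list, that of Atf5, a transcription factor of the stress response, came with overlapping groups (-0.90 ± 0.32). The list's median was -0.14 without CKO vehicle replicate 3 and -0.33 without CKO vehicle replicate 4. Of the 35 proteasome subunits, 12 (34.3%) had lower CKO groups and 0 had higher, 29 lay below 0 and the median was -0.15. These differences were small, with Psmd4, a ubiquitin receptor of the proteasome, the largest at -0.29 ± 0.12 (adjusted p = 0.515). The median was -0.09 without CKO CDDO-Im replicate 2 and -0.10 without CKO vehicle replicate 3. The mean signal of the proteasome list was 11.71 to 11.77 with vehicle and 11.55 to 11.66 with the drug in CKO livers. These values lie inside the range of WT livers, 11.49 to 11.81. Median centring left 8 heat shock (34.8%), 10 unfolded protein response (32.3%) and 9 proteasome genes (25.7%) with lower groups, beside 7.21% of all genes. Higher groups then numbered 0, 2 and 1, beside 9.68% of all genes.

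Genes of glucocorticoid and insulin action held some of the widest CKO differences. Of 16 tested glucocorticoid-responsive genes, 4 (25%) had higher CKO groups without overlap and 0 lower, beside 5.18% and 9.4% of all genes. The medians were 0.48 in CKO and 0.83 in WT livers, and 0 were called in CKO livers, as of all genes. The CKO median was 0.26 without CKO vehicle replicate 4. In CKO livers 13 of the 16 lay above 0 and 3 below. The largest difference of the list, that of Lcn2 (-2.06 ± 1.23), was below 0 with overlapping groups. Pck1, the rate-limiting enzyme of gluconeogenesis, read from 10.29 to 12.66 with vehicle and 12.88, 13.13 and 13.38 with the drug (1.81 ± 0.54, adjusted p = 0.42). Its drug-treated values lay close together and vehicle replicate 5 close below them. The other 3 with higher groups were Angptl4 (1.14), Lpin1 (1.11) and Fkbp5 (0.65), the glucocorticoid receptor's co-chaperone, which rose by 1.57 in WT livers. In the list of gluconeogenesis, glycogen and insulin signal, 2 of 20 genes (10%) had higher and 2 (10%) had lower CKO groups without overlap, beside the same 5.18% and 9.4%. Without CKO vehicle replicate 4 there were 4 higher (20%, beside 11.7% of all genes). Igfbp1, a binding protein of insulin-like growth factors that insulin represses, had the largest difference above 0 in CKO livers. It read 9.27, 7.32 and 10.14 with vehicle and 11.02, 11.79 and 11.96 with the drug, a difference of 2.68 ± 0.83 (6.40-fold, adjusted p = 0.425) beside 2.52 ± 0.83 in WT livers, where it was not called either (adjusted p = 0.128). Irs1, the insulin receptor substrate, stood apart in the other direction, at 10.22, 10.12 and 10.16 against 9.31, 9.60 and 8.78 (-0.94 ± 0.26, adjusted p = 0.392).

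Some genes, none of them called, had CKO groups that stood apart and a WT value near 0. Cyp17a1, a steroid hydroxylase, had the widest difference among the 8338 genes, with 9.67, 8.26 and 9.50 in vehicle and 5.26, 6.76 and 5.31 in CDDO-Im livers (-3.36 ± 0.75, 10.3-fold lower, adjusted p = 0.294). Its WT difference was -0.41 ± 0.75 and its interaction -2.95 ± 1.06 (adjusted p = 0.389), so a difference between the genotypes was not shown. Cyp17a1 and the 9 genes that follow it in this paragraph were singled out after their values were seen. Apela, a ligand of the apelin receptor, read 8.79, 7.52 and 8.16 with vehicle and 7.22, 6.79 and 6.80 with the drug in CKO livers (-1.22 ± 0.26, adjusted p = 0.294) and lay at the bottom of the scale in all WT livers, between 2.36 and 2.66, so that its WT difference cannot be read. Among the 11 genes at the lowest adjusted p (0.225), Scnn1a, a subunit of the epithelial sodium channel, read 8.07, 8.18 and 8.09 with vehicle and 8.72, 8.83 and 8.71 with the drug (0.64 ± 0.12). The others were Keg1 (1.20 ± 0.22), Dhdh (0.68 ± 0.13), Eepd1 (-0.88 ± 0.16), Lyst (-0.75 ± 0.14) and Tm6sf2, which acts in lipoprotein secretion (-0.71 ± 0.13), with Dnajc24 (-0.48 ± 0.08) and Zkscan1 (0.69 ± 0.12), whose probe sets ranged from 0.14 to 0.69. In none of these 8 genes did the CKO groups overlap, and their WT differences lay between -0.27 and 0.36. Their interactions were not called (adjusted p from 0.0745 to 0.406).

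Further named genes stood apart by 1 or 2 livers. Fgf21, the fasting hormone of the liver, read 10.01, 6.88 and 7.65 with vehicle and 6.29, 6.76 and 6.48 with the drug, so the difference of -1.68 ± 0.75 (adjusted p = 0.526) came largely from vehicle replicate 3. The same liver was the highest of its group in the acute phase genes Lcn2, at 13.35 against 9.45 and 9.56, and Saa2, at 15.90 against 10.63 and 11.66, and neither gene was called (-2.06 ± 1.23 and -2.01 ± 1.42). Cyp2b9, a female-predominant cytochrome P450, read 2.49, 11.83 and 4.66 with vehicle and 7.09, 2.47 and 5.10 with the drug, with no order between the groups. Ppara, the fatty acid receptor of the liver, read 10.70, 10.64 and 10.13 with vehicle and 11.60, 10.85 and 11.54 with the drug (0.84 ± 0.26, adjusted p = 0.42), and the 3 probe sets of the gene ranged from 0.13 to 0.84. Of the 28 tested genes of fatty acid oxidation and PPAR alpha, 4 (14.3%) had higher and 1 (3.57%) had lower CKO groups without overlap, beside 5.18% and 9.4% of all genes, with a median of 0.12. Without CKO vehicle replicate 4, 16 of them (57.1%) had higher groups, beside 11.7% of all genes, and the median was 0.30. It was 0.26 without CKO CDDO-Im replicate 2 and lay between 0.04 and 0.07 without any 1 of the other 4 CKO arrays.

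**Figure D4:**
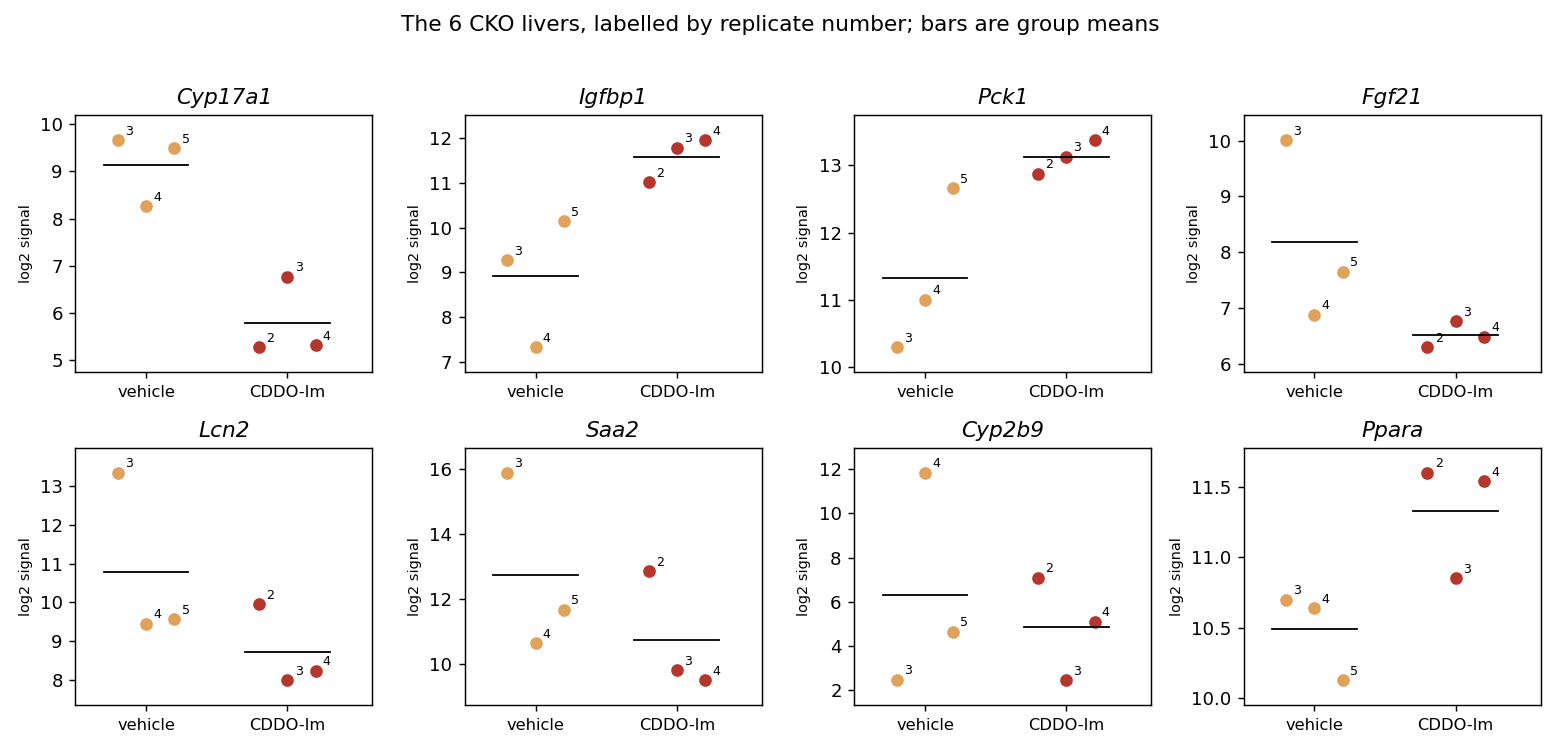
Log2 signal of 8 genes in the 3 CKO vehicle (orange) and 3 CKO CDDO-Im livers (red), with replicate numbers beside the points and group means as bars. The groups stand apart for Cyp17a1, Igfbp1, Pck1, Fgf21 and Ppara, vehicle replicate 3 lies far above its group for Fgf21, Lcn2 and Saa2, and vehicle replicate 4 for Cyp2b9.

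In the other groups of hepatic function, counts of genes whose CKO groups stood apart are read beside the 5.18% higher and 9.4% lower of all genes. Among regulators of the Keap1 pathway 11 were tested, with a median of -0.04 in CKO and 0.24 in WT livers. Nfe2l2, which encodes Nrf2, differed by -0.26 ± 0.14 in CKO livers, and the repressor Bach1 by 0.33 ± 0.14 with overlapping groups, beside a WT rise of 1.14. Of 21 xenobiotic cytochrome P450s, 1 (4.76%) had higher groups without overlap and 0 lower, and of 16 genes of glucuronidation and sulfation 1 and 1 (6.25% each), with Ugt2b38 at 7.62, 6.49 and 6.49 against 9.25, 8.51 and 7.81 (1.66 ± 0.78). All 7 tested carboxylesterases, which cleave ester drugs, lay above 0 with a median of 0.39, and the median was 0.17 without CKO vehicle replicate 3 and 0.21 without CKO CDDO-Im replicate 3. In the urea cycle and amino acid catabolism 5 of 21 (23.8%) had lower groups without overlap, Bcat2 the lowest at -1.37 ± 0.49, with a median of -0.14. The count was 2 (9.52%) after median centring, beside 7.21% of all genes, and 12 (57.1%) without CKO vehicle replicate 4, beside 16.6%. The median was -0.08 without CKO CDDO-Im replicate 2 and -0.09 without CKO vehicle replicate 5. Acute phase genes gave 3 of 30 higher groups (10%), Saa4 at 1.20 ± 0.35 the highest. Of the 24 interferon genes 0 stood higher and 1 lower (4.17%), of 28 genes of coagulation and complement 0, and of 28 genes of oxidative phosphorylation 1 and 1 (3.57% each), with a median of 0.05. Without CKO vehicle replicate 4 there were 9 higher (32.1%, beside 11.7% of all genes), and 4 (14.3%, beside 9.68%) after median centring.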

How the data were processed

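The deposited log2 values of 45101 probe sets on 12 arrays were made by the authors, who per the submitters' processing notes used GCRMA 2.12.1 under R 2.7.0. This method places probe sets without signal at a floor, where 16494 to 16776 lay per array, so changes near it depend on the background model. Probe sets were named from the platform annotation (34945 name 1 gene, 932 several, 9160 none, 64 controls were left out). The brightest stood for each of 18193 genes, and the 8338 above 5 on at least 3 arrays were tested. limma 3.58.1 in R 4.3.3 fitted 4 group means to all 12 arrays (8 residual and 2.324 prior degrees of freedom), with two-sided p-values adjusted by Benjamini-Hochberg. The code was tested on simulated data. Intervals are unadjusted. Genes named were the most changed called genes in the WT comparison and the interaction, the largest CKO difference in each list, a fixed set of 13 that includes Nqo1, Gclc, Mt2, Bmp6 and Fasn, and others as stated. Further members of a list were named where their CKO groups did not overlap. The samples, lists and members were chosen with earlier results of these data known. The labels do not say whether replicate numbers tie mice together, so no pairing was used. Deviations from group means of same-numbered livers had correlations of -0.073 to 0.094. The few same-numbered pairs cannot show that a pairing or batch is absent. The number of arrays limits the precision.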

Additional observations from a re-analysis of the deposited data

Results flagged for a closer look

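The drug response differed between CKO and WT livers, by the interaction term in limma, for 23 genes. The values, as CKO response minus WT response on the log2 scale, were -4.62 for Mt2, -4.03 for Mt1, -3.68 for Nqo1, -3.59 for Srxn1, -2.15 for Gsta2, -2.05 for Ppfibp2, -1.66 for Akr1c19, -1.55 for Pir, -1.54 for Gclc and -1.50 for Cbr1. They went on with -1.48 for Txnrd1, -1.22 for Pgd, -1.19 for Ugdh, -1.10 for Gbe1, -1.07 for Abhd4, -1.06 for Dennd4c, Gsr and Ubap1, -0.99 for Ikbkg, -0.98 for Mafg and -0.63 for Tent4b. The values above 0 were 3.02 for Pnpla3 and 1.70 for Tsc22d1. Pnpla3 lay near the bottom of the scale on all WT CDDO-Im arrays and on 5 of 6 CKO arrays, so its value is not read as a difference in response. Dixon's criterion for an outlying sample was not applied, since each group had 3 livers.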

How the results depend on the processing

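The count of 0 genes called in CKO livers was 1 without the filter on low values (1700123K08Rik, at 0.04) and 2 with the replicate number as a block (Pck1 at 2.54 and Zfp467 at -1.08), and 0 to 1 when 1 array was left out (Hps4 at 0.90, without CKO vehicle replicate 5). It was 0 in the other alternatives run (quantile normalization, median centring, a stricter filter, another or every probe set, the 6 arrays alone, another variance prior, repeated values left out), with 648 to 980 genes at an unadjusted p under 0.05. The count of 304 in WT livers was 124 without the filter, 85 with the 6 WT arrays alone, 114 with the replicate block and 106 to 318 with 1 array left out. Its split of 157 rises and 147 falls was 228 and 121 with median centring and 197 and 136 with quantile normalization. The interaction count of 23 was 7 without the filter (Gclc, Mafg and Srxn1 among them), 3 with the replicate block (Nqo1, Pgd and Tsc22d1) and 2 to 31 with 1 array left out. The causes were not tested. Replicate numbers did not pair the livers, so the block is an alternative only. With it the CKO medians were -0.15 for heat shock and -0.06 for proteasome genes. Of the named genes' CKO differences under the alternatives, 1648 kept their sign or shifted by less than the SD within groups. A kept sign does not limit the size of the shift. The other 9 did neither, for Car3 and Keap1 (another probe set), Epcam and Ighm. Of the interactions of the 23 genes under the alternatives, 261 stayed called and 221 kept their direction but were no longer called. With non-overlap as the measure, all genes gave 973 higher and 1386 lower without CKO vehicle replicate 4, and 570 and 1121 without replicate 3, both chosen after the data were seen. Probes near the floor and 3 livers a group limit what could be detected.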
